A study of Mus musculus with 2 samples.

Results

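The skeletal muscle outlines described here were chosen by the transcripts they held. A segmented outline with at least 20 gene transcripts was kept where Ttn, Pvalb, Actn3, Pygm and Des made up at least 30% of its transcripts and Pvalb and Actn3 together had at least 3. This selected 5134 of 59588 outlines, 3274 of 44282 in SspA+HDM skin and 1860 of 15306 in mock skin. The data are Xenium In Situ measurements of a 379-gene panel, in which single RNA molecules are decoded at their place in a tissue section and assigned to segmented outlines. The sections were 5-µm slices of fixed, paraffin-embedded back skin of C57BL/6 mice, shaved and depilated, and prepared at day 7. One group had received SspA and HDM on the skin and the other PBS on the skin (mock). SspA is the name of a secreted protease of Staphylococcus aureus and HDM is the usual short form of house dust mite, though the labels spell out neither. The labels give neither age nor sex and name 1 sample for each treatment, so differences below have no replicate check and no test. The intervals, all at 95%, take in counting error alone.

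Each section held 2 strips of skin. The strips of a section resembled each other in their course and are parts of 1 sample, not replicates, so their values are set side by side only to show how far a value moved within a section. The SspA+HDM section gave 8124205 gene transcripts at a quality score of at least 20, and the mock section 2461475. Muscle outlines held 1114266 of them in SspA+HDM skin and 651086 in mock skin. The median muscle outline had 308 transcripts in SspA+HDM skin (quartiles 194 and 453) and 311 in mock skin (184 and 474). The other outlines had medians of 119 and 97. No outline ID occurred in both sections.

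In mice, a thin sheet of skeletal muscle, the panniculus carnosus, lies below the dermis and its fat layer and moves the skin. Its fibres are long cells with many nuclei, so an outline in a section is a piece of a fibre and not a cell. Fibres contract when calcium leaves the sarcoplasmic reticulum and binds troponin C on the thin filaments. Fast fibres buffer that calcium with parvalbumin and draw on glycogen, while slow and oxidative fibres use other isoforms of the contractile and metabolic proteins. Titin, the product of Ttn, is the spring of the sarcomere. Pvalb encodes parvalbumin. Actn3 encodes the α-actinin of fast Z-discs, Pygm the muscle glycogen phosphorylase, and Des the intermediate filament desmin that ties Z-discs together.

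The position of the outlines, which the rule did not use, was that of a deep sheet. Most muscle outlines lay in a band along the deep side of the strip, opposite the epithelium. In steps of 100 µm along the strip, 70 of 77 and 73 of 77 steps held members in the SspA+HDM strips, and 67 of 69 and 70 of 71 in the mock strips. The median distance from the outer edge was 319 and 320 µm in the SspA+HDM strips and 170 and 169 µm in the mock strips. As a share of the local tissue depth this was 93.0% and 90.6% in SspA+HDM skin and 77.5% and 75.4% in mock skin. The band itself was 77.7 and 71.8 µm deep in the SspA+HDM strips, against 47.8 and 48.6 µm in the mock strips. In SspA+HDM strip 1, 27 muscle outlines lay nearer to the outer than to the deep edge of the tissue. Near 2.3 mm along that strip, 22 members had a median distance of 39.9 µm from the outer edge. The other 3 strips had no such outlines.

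**Figure D1:**
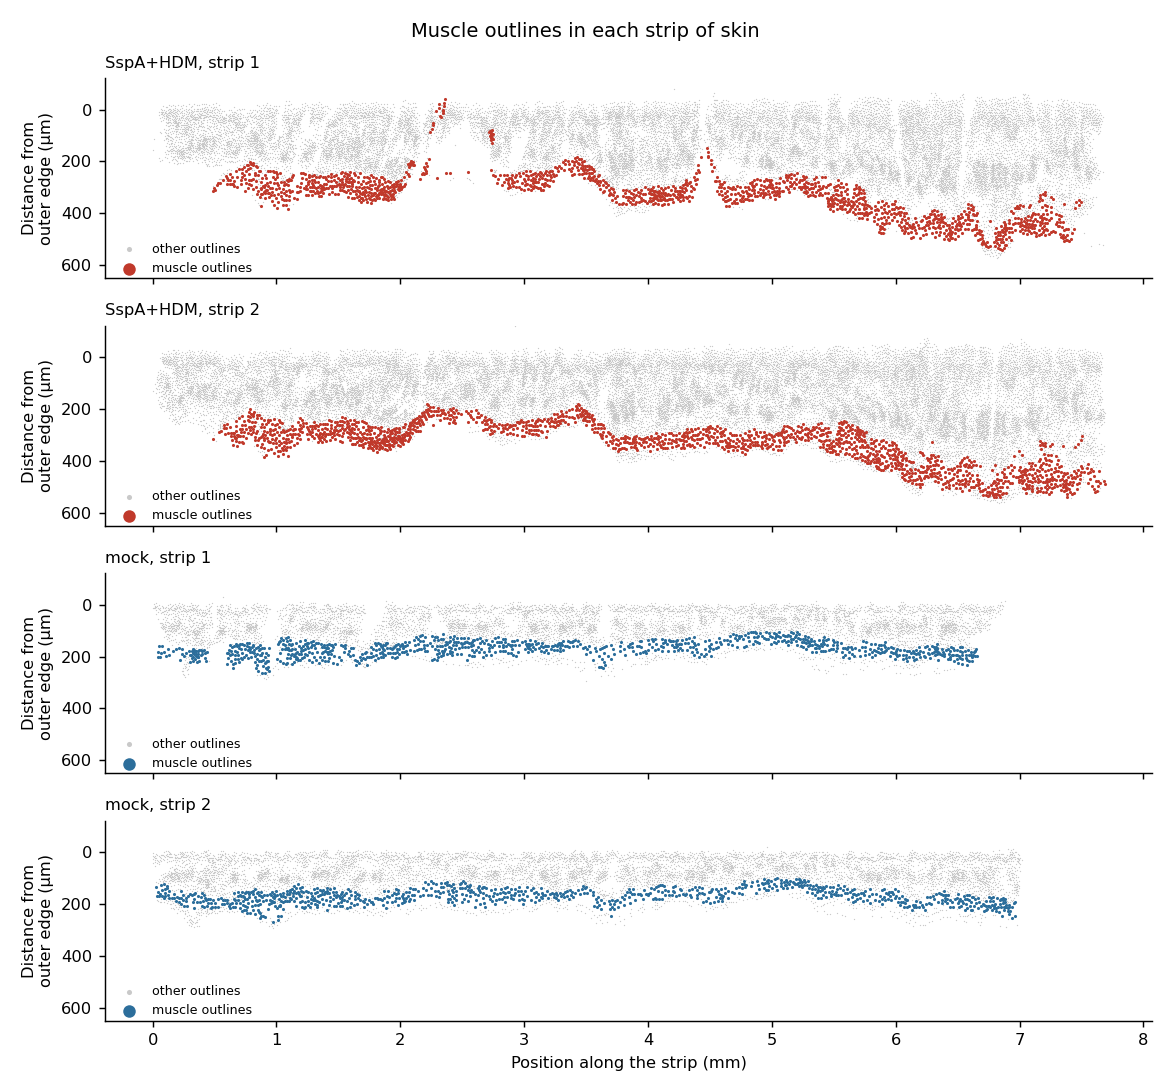
Each point is an outline with at least 20 transcripts, placed by its position along the strip (mm) and its distance from the outer edge (µm), with muscle outlines in colour and all others in grey. Most muscle outlines lie deep, at a median of 319 and 320 µm in the SspA+HDM strips and 170 and 169 µm in the mock strips, while 27 in SspA+HDM strip 1 lie nearer to the outer edge.

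Muscle outlines were a smaller share of all outlines in SspA+HDM skin but were more closely spaced along the strip. They were 7.39% of outlines in SspA+HDM skin (exact binomial interval 7.15 to 7.64) and 12.2% in mock skin (11.6 to 12.7). Counted per mm of strip there were 201 and 225 in the SspA+HDM strips, against 137 and 130 in the mock strips. The ratio per mm was 1.59 (1.51 to 1.69). All outlines together stood at 2798 and 3208 per mm in SspA+HDM skin and at 1088 and 1199 per mm in mock skin, so the share moved with the number of other outlines. The median muscle outline had an area of 289.5 µm² in SspA+HDM skin and 351 µm² in mock skin. The summed area of muscle outlines per µm of strip was 62.5 and 69.5 µm² in the SspA+HDM strips and 50.2 and 49.8 µm² in the mock strips. Counts of outlines depend on where the segmentation split a fibre, and its part in these differences was not tested.

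The rule genes are given as a description, since they chose the members. Ttn took 17.0% and 16.6% of the transcripts of muscle outlines in the SspA+HDM strips, against 18.3% and 17.1% in the mock strips. Des took 10.4% and 10.2% in the SspA+HDM strips, above the 7.47% and 7.70% of the mock strips. Pvalb took 9.65% and 9.46% in the SspA+HDM strips, below the 11.9% and 11.4% of the mock strips. Pygm had 7.02% and 6.94% in SspA+HDM skin and 8.23% and 7.94% in mock skin, and Actn3 had 7.02% and 6.64% in SspA+HDM skin and 7.12% and 6.86% in mock skin. Within a section the spread over single outlines was far wider than the gap between the pooled sections. That spread includes the counting error of each outline. The 10th and 90th percentiles of the Pvalb share over outlines were 3.77% and 14.9% in SspA+HDM skin, and 5.45% and 16.8% in mock skin.

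**Figure D2:**
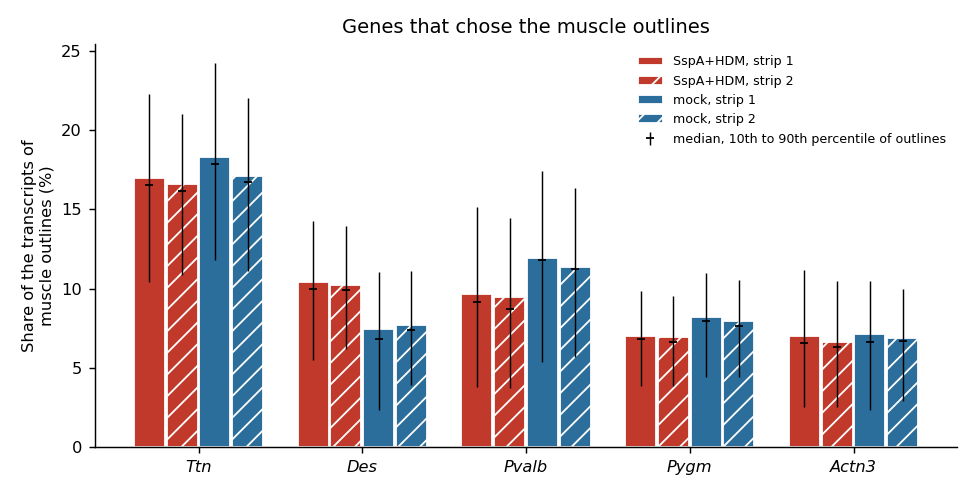
Bars give the share of all transcripts of muscle outlines (%) that each rule gene took in each strip, and the black lines run from the 10th to the 90th percentile over outlines with the median marked. Des is higher and Pvalb lower in the SspA+HDM strips. The spread over outlines, which includes the counting error of each outline, is wider than the gap between sections.

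Members near the threshold lay at depths close to those of outlines just below it. The 300 SspA+HDM and 135 mock members with a rule-gene share of 30 to 35% had a median distance from the outer edge of 309 and 160 µm. The 269 SspA+HDM and 146 mock outlines at 25 to 30%, just outside, were at 310 and 153 µm. A further 39 SspA+HDM and 22 mock outlines reached the share but had fewer than 3 Pvalb and Actn3 transcripts. The median member had a rule-gene share of 49.5% in SspA+HDM skin and 51.1% in mock skin.

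Muscle outlines held 83.8% of the rule genes' transcripts in SspA+HDM skin and 80.2% in mock skin, a share that the rule itself sets. For muscle genes outside the rule the share differed by gene. It was 86.7% in SspA+HDM skin and 82.5% in mock skin for Myoz1, 72.2% and 71.8% for Cryab, 65.6% and 62.1% for Mustn1, and 69.7% and 75.4% for Arpp21. Outlines that hold mainly adipocyte markers averaged 2.48 Ttn transcripts in SspA+HDM skin and 3.49 in mock skin, against 57.0 and 62.1 in muscle outlines. The adipocyte markers on the panel were Retn, Car3, Cd36 and Pck1, and muscle outlines hold Car3 too. An outline of this kind may therefore hold transcripts of what lies beside it or be a piece of muscle below the rule. Which of these applied was not tested. Further readings are given where transcripts of neighbours matter, over the nucleus only and over interior members. The 5 nearest outlines of an interior member were all muscle (1504 such members in SspA+HDM skin and 510 in mock skin). The nucleus held 10.2% of the transcripts of muscle outlines in SspA+HDM skin and 8.93% in mock skin, against 35.1% and 32.4% in other outlines.

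Genes outside the rule were compared as CPM, transcripts scaled to a fixed total of the 374 genes the rule did not use. Of these, 169 had at least 100 transcripts in the muscle outlines of a section. In both sections 26 of the 169 (15.4%) stood at least 2-fold above the other outlines. The rule genes, 49.5% of the median muscle outline in SspA+HDM skin and 51.1% in mock skin, are outside this total. Leaving them out raises ratios of muscle over other outlines. Levels in the other outlines are sums over outlines of all kinds, and their mix differed between the sections. Outlines with mainly keratinocyte markers were 57.4% of them in SspA+HDM skin and 52.4% in mock skin. Those with mainly adipocyte markers were 8.14% and 12.6%. The part of this mix in ratios that use the other outlines was not tested. Levels of different genes also depend on their probes and are not ranked against each other.

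Among Z-disc genes, Myoz1, which encodes a myozenin that links α-actinin to calcineurin, was at 40219 and 36637 CPM in the SspA+HDM strips and 43243 and 37774 CPM in the mock strips, with overlapping ranges. It was 138-fold above the other outlines in SspA+HDM skin and 64.2-fold above them in mock skin. Myoz2, the myozenin of slow and cardiac muscle, was at 32269 and 31440 CPM in the SspA+HDM strips and 27182 and 26778 CPM in the mock strips, a ratio of 1.18 (1.15 to 1.21). Interior members gave 1.04. Cryab, the small heat shock protein αB-crystallin that binds desmin, was at 92291 and 96517 CPM in SspA+HDM skin and 103070 and 108980 CPM in mock skin.

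The measured calcium-release genes had ratios close to 1. Trdn encodes triadin, which anchors calsequestrin at the release channel, and was at 68085 and 63974 CPM in the SspA+HDM strips and 67630 and 62985 CPM in the mock strips. Hrc, a calcium-binding protein of the reticulum lumen, was at 35744 and 34871 CPM in SspA+HDM skin and 37600 and 37315 CPM in mock skin. Sypl2, a membrane protein of the triad junction, had a ratio of 1.04 (1.01 to 1.08). Pln, which encodes phospholamban, the inhibitor of the calcium pump in slow and cardiac muscle, had only 44 transcripts in SspA+HDM muscle outlines and 61 in mock ones and was not counted.

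Energy genes were equal or somewhat lower in SspA+HDM muscle. Pgam2, the muscle phosphoglycerate mutase of glycolysis, was at 42970 and 39463 CPM in the SspA+HDM strips, below the 50696 and 46106 CPM of the mock strips. Its ratio was 0.85 (0.83 to 0.87). Cox8b, a muscle subunit of cytochrome c oxidase, had a ratio of 0.96 (0.92 to 1.01), and Ppargc1a, the coactivator of mitochondrial genes, 1.02 (0.94 to 1.12). Cd36, the fatty acid transporter, had a ratio of 0.75 (0.73 to 0.78) in muscle outlines, and Car3, the carbonic anhydrase of muscle and fat, 0.92 (0.91 to 0.93). Both are also adipocyte genes: in the other outlines Cd36 was 2.03-fold and Car3 2.17-fold lower in SspA+HDM skin. Outlines with mainly adipocyte markers were a smaller share of the other outlines there. Within them Cd36 averaged 7.14 transcripts per outline in SspA+HDM skin and 9.07 in mock skin. Cd36 is among the markers that chose these outlines, so these 2 values are a description. Of the lists written for muscle, 1 of 3 measured sarcomere genes and none of 2 calcium, 5 energy, 1 satellite-cell and 1 stress gene reached a 2-fold difference. The median log2 ratios of the first 3 lists were 0.24, -0.04 and -0.12, beside 0.14 over all 169 genes.

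Among regulators and other muscle genes, Myf6, a myogenic transcription factor kept in adult fibres, was at 7178 and 7240 CPM in SspA+HDM skin and 7981 and 7431 CPM in mock skin. It was found in 53.4% of SspA+HDM and 55.1% of mock muscle outlines. Aqp4, a water channel of the fibre membrane, had a ratio of 0.87 (0.80 to 0.94). Mustn1, a small nuclear protein of muscle and skeleton, was at 23159 and 21457 CPM in the SspA+HDM strips, above the 17572 and 16463 CPM of the mock strips. Its ratio of 1.31 (1.27 to 1.35) was 1.09 in interior members. Arpp21, an RNA-binding phosphoprotein, had a ratio of 1.29 (1.15 to 1.45).

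Muscle outlines differed among themselves in their balance of Pvalb and Myoz2, in the same direction in all 4 strips. Outlines were put into 3 equal groups within each strip by Pvalb as a share of the 5 rule genes, and other genes were read per 1000 transcripts of Ttn, Des, Pygm and Actn3, genes that other outlines hold at low levels. Des was not confined to muscle: smooth muscle and pericyte outlines averaged 1.49 Des transcripts in SspA+HDM skin and 2.59 in mock skin, against 34.997 and 26.6 in muscle outlines. Outlines with at least 50 rule-gene transcripts were used, which left out 314 in SspA+HDM skin and 200 in mock skin. Pvalb was 11.1, 18.6 and 25.6% of the rule genes from the low to the high group in SspA+HDM skin and 15.3, 22.7 and 28.4% in mock skin. These values made the groups and are no finding.

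Myoz2 ran opposite to Pvalb. It had 69.2, 30.7 and 17.6 transcripts per 1000 from the low to the high Pvalb group in SspA+HDM skin and 57.8, 23.0 and 14.5 in mock skin. The low group stood above the high one by 4.02-fold and 3.88-fold in the SspA+HDM strips and by 4.27-fold and 3.79-fold in the mock strips. Ldhb, which encodes the heart-type subunit of lactate dehydrogenase, had 12.2, 5.23 and 2.91 per 1000 in SspA+HDM skin and 15.6, 6.08 and 3.16 in mock skin. Its low-to-high ratio was 4.20 in SspA+HDM and 4.94 in mock skin. Of 30 genes that were rule genes other than Pvalb or stood at least 2-fold above other outlines in both sections, 4 were at least 1.5-fold higher in the low group of all 4 strips. They were Myoz2, Fxyd6, Arpp21 and Tnnc1, the last with few transcripts in mock skin. Over all 173 genes read in this way 8 did so, the others being Ldhb, Aqp1, Rgs5 and Podxl. In the other direction, 1 of the 30 and 4 of the 173 were at least 1.5-fold higher in the high group of all 4 strips. They were Actn3, a rule gene, and Serpina3n, Tspan8 and Gatm. Fxyd6, a regulator of the sodium pump, had low-to-high ratios of 2.04 in SspA+HDM and 2.58 in mock skin.

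Actn3 is a rule gene and part of both the scale and the grouping, so its values are a description. It had 116, 174 and 208 per 1000 in SspA+HDM skin and 124, 187 and 211 in mock skin. Myoz1, the myozenin of fast fibres, had 41.6, 47.1 and 50.5 per 1000 in SspA+HDM skin and 43.8, 48.8 and 51.7 in mock skin. Cox8b had low-to-high ratios of 1.67 in SspA+HDM and 1.49 in mock skin. Vessel genes were mixed. Aqp1, a water channel of capillary endothelium, had ratios of 1.94 in SspA+HDM and 2.002 in mock skin, and Rgs5, a pericyte gene, 1.90 in SspA+HDM and 1.79 in mock skin. Of the blood endothelial markers, Kdr had 1.80 in SspA+HDM and 1.85 in mock skin, Vwf 1.21 and 0.89, and Plvap 1.07 and 0.37. Ldhb, Fxyd6, Aqp1 and Rgs5 were picked out after their values had been seen.

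**Figure D3:**
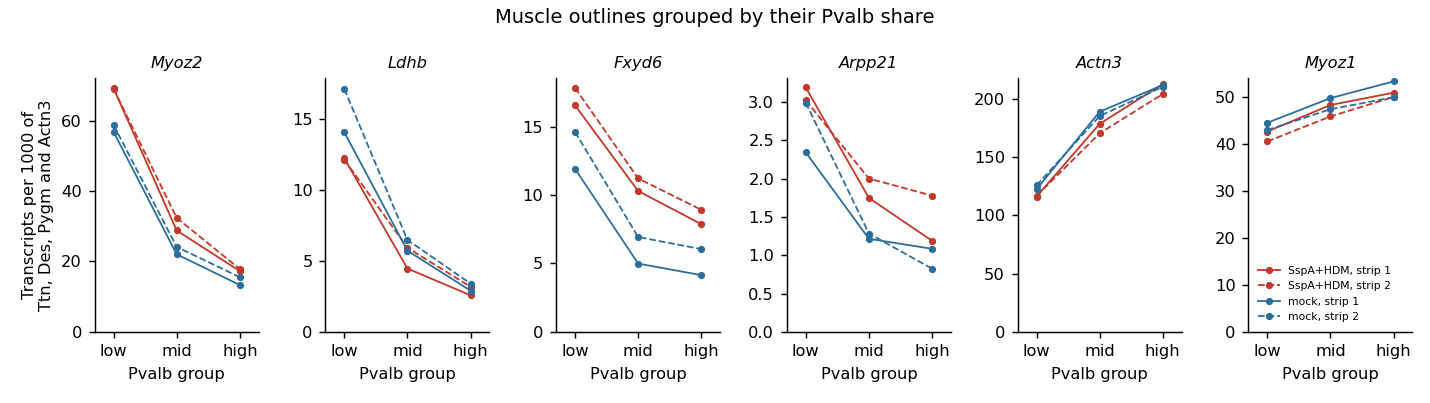
Transcripts per 1000 of Ttn, Des, Pygm and Actn3 are plotted for muscle outlines with low, middle and high Pvalb share, with 1 line for each strip. Myoz2, Ldhb, Fxyd6 and Arpp21 are highest in the low group of all 4 strips, Actn3 is highest in the high group, and Myoz1 differs least.

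The promoter windows of Pvalb, Myoz2, Ldhb and Tnnc1 are shown because these genes differed between the Pvalb groups, the last 3 in the direction opposite to Pvalb. They are RefSeq windows of build GRCm38.p6, from 250 bases before to 50 after the gene start, on the gene's own strand. Windows were found for 4 of the 5 genes looked up, and Actn3 had none in the table. Capitals mark matches on either strand to the muscle E-box CAGCTG, to the MCAT motif CATTCC or to the MEF2 motif, which did not overlap here.
Pvalb, chr15:78206351-78206650, minus strand: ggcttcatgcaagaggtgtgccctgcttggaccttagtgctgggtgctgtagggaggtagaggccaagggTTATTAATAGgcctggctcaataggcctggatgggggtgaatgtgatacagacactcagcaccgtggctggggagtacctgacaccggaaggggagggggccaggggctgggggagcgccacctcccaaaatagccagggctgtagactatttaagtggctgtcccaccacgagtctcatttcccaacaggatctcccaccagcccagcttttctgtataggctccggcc
Myoz2, chr3:123034938-123035237, minus strand: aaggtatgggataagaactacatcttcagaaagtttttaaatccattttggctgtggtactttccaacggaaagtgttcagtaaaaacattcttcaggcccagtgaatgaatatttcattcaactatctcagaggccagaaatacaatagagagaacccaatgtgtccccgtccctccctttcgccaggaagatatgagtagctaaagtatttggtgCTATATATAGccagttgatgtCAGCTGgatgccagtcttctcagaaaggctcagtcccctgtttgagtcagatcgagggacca
Ldhb, chr6:142507908-142508207, minus strand: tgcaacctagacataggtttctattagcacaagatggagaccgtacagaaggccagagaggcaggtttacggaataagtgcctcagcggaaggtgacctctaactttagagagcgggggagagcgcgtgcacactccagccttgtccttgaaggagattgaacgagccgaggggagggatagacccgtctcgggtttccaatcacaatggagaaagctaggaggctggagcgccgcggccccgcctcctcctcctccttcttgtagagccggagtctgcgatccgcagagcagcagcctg
Tnnc1, chr14:31208062-31208361, plus strand: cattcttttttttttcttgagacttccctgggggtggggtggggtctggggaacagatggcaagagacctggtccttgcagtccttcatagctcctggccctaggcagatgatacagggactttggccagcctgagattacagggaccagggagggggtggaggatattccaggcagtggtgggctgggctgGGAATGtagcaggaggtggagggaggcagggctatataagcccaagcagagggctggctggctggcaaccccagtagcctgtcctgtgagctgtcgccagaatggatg
The Pvalb window held 1 MEF2 match. The Myoz2 window held 1 MEF2 match and 1 E-box, and the Tnnc1 window held 1 MCAT match. The Ldhb window held none. Over all 32817 windows of this length, 3.19% held a MEF2 match, 16.3% the E-box and 14.7% the MCAT motif. A second Pvalb start in the table held no match.

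Between treatments, most genes of muscle outlines differed by less than 2-fold. Of the 169 genes, 24 (14.2%) had a ratio of 2 or more, SspA+HDM over mock, and 1 (0.592%) a ratio of 0.5 or less. The ratios of 114 genes lay within 1.5-fold, and 103 of the 169 were above 1. Genes entered with 100 transcripts in either section, and SspA+HDM muscle held more transcripts, so 11 of the 24 entered through SspA+HDM skin only and the split is in part set by this minimum. Of 138 genes at the minimum in both sections, 13 were at least 2-fold higher and 1 lower. Of the 24, 14 were at least 2-fold higher in every pairing of an SspA+HDM with a mock strip, 21 in interior members and 11 over the nucleus. Outside muscle, the same sections gave 5 of the 169 genes 2-fold or more above mock skin and 39 of the 169 as far below it. The mix of outlines behind these 2 counts differed between the sections. The 24 included Tnnc1, macrophage and leukocyte genes, epidermal genes, and others such as C3, Serpina3n and Bgn. The lists and genes named here were chosen with earlier results of these data known.

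**Figure D4:**
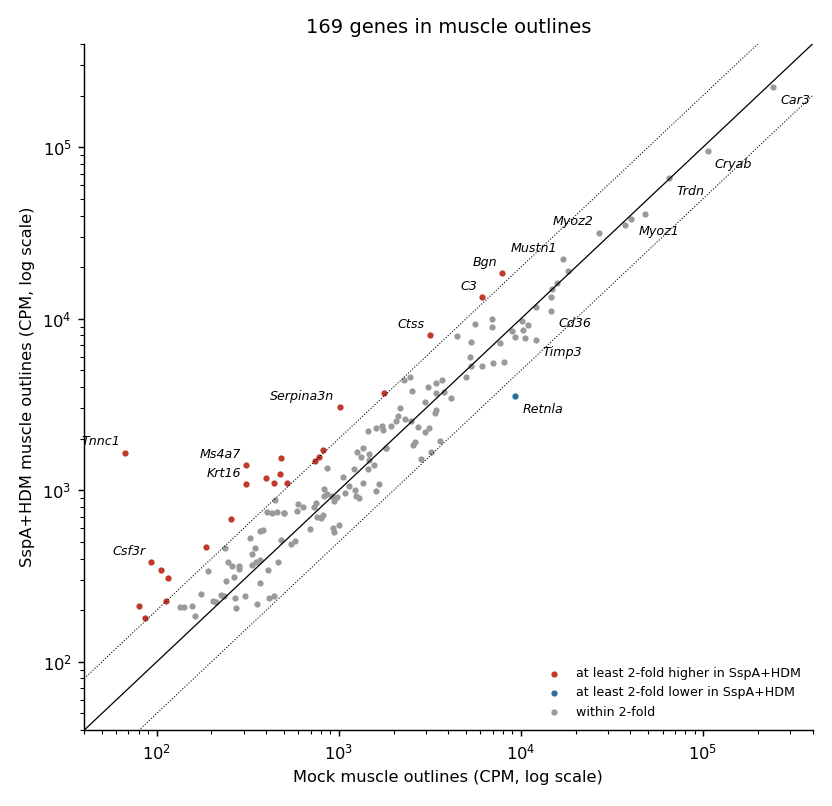
Each point is 1 of 169 genes outside the rule, with its level in SspA+HDM muscle outlines against its level in mock muscle outlines (CPM, both axes logarithmic). The solid line marks equal levels and the dotted lines 2-fold differences, with 24 genes above, 1 below, and the muscle genes Myoz1, Trdn and Cryab close to the solid line.

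Tnnc1 stood far apart. It encodes the troponin C of slow skeletal and cardiac muscle, the calcium sensor of the thin filament. It was at 1764 and 1568 CPM in the SspA+HDM strips and at 58.6 and 75.6 CPM in the mock strips. The muscle outlines held 916 Tnnc1 transcripts in SspA+HDM skin and 21 in mock skin, a ratio of 24.6 (16.0 to 39.99). It was 25 in interior members, from 312 and 4 transcripts, and 23.0 over the nucleus, from 134 and 3 transcripts there. Only 6.41% of SspA+HDM muscle outlines held any, against 0.914% in mock skin. The highest outline had 25 transcripts in SspA+HDM strip 1 and 18 in strip 2, against 2 and 3 in the mock strips. Tnnc1 was not confined to muscle outlines. Other outlines held 536 of 1452 Tnnc1 transcripts in SspA+HDM outlines and 49 of 70 in mock outlines. The mock counts were near the floor: the most frequent control feature had 34 transcripts in the whole mock section, and 127 in the SspA+HDM section.

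Most Tnnc1 transcripts of SspA+HDM muscle lay in 1 short stretch. Steps of 100 µm, with at least 5 members, in which at least 20% held 3 or more Tnnc1 transcripts spanned 1.8 to 2.1 mm in SspA+HDM strip 1 and 1.8 to 2.0 mm in strip 2, and no step did so in mock skin. The stretch had 90 and 81 members and held 292 of 441 and 309 of 475 Tnnc1 transcripts. Within it, 54.4% and 64.2% of members held Tnnc1. It lay at the same place in both strips, which are parts of 1 sample. Without the stretch the ratio was 8.83, from 315 transcripts in SspA+HDM and 21 in mock skin. A lesser peak of 0.30 and 0.23 transcripts per member stood at 3.5 mm in both SspA+HDM strips. The stretch was drawn from the Tnnc1 values themselves, so its Tnnc1 level is a description.

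**Figure D5:**
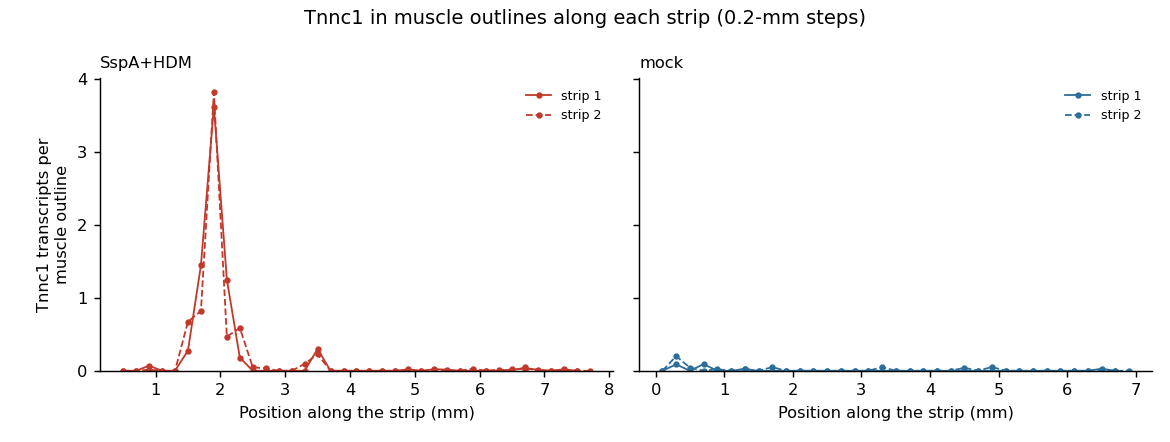
Tnnc1 transcripts per muscle outline are plotted in 0.2-mm steps along each strip, SspA+HDM on the left and mock on the right. Both SspA+HDM strips peak at 1.9 mm, at 3.62 and 3.81 transcripts per outline, and the highest mock step is at 0.20.

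The members of the stretch differed in more than Tnnc1. Their median area was 133 and 154 µm², against 292 and 299 µm² in the other members of the same strips. They were packed at 300 and 405 per mm, against 197 and 220 elsewhere, at depths of 302 and 318 µm, against 322 and 320.5 µm. Here levels were read per transcript other than Tnnc1. Of 84 genes with at least 50 transcripts inside the stretch or 1000 outside it, 16 stood above the rest of the muscle by 2-fold or more in both strips and 9 below it. These counts depend on the minimum, since 7 of the 16 reached it only inside and 8 of the 9 only outside. Of 56 genes that reached both minimums, 9 were higher and 1 lower. S100a4, a calcium-binding protein of motile and mesenchymal cells, was 9.53-fold and 8.78-fold higher. Thbs4, a thrombospondin of muscle and tendon matrix, was 5.26-fold and 3.78-fold higher.

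Matrix and muscle genes were mixed in the stretch. Aspn, the small proteoglycan asporin, was 3.42-fold and 2.94-fold higher, and Lum, lumican, 2.35-fold and 1.87-fold higher, while the fibroblast genes Pi16, with ratios of 0.32 and 0.27, and Dpt, with 0.92 and 0.88, were not. Myf6 was 2.19-fold and 2.03-fold higher, Arpp21 2.67-fold and 3.07-fold, and Myoz2 1.495-fold and 2.06-fold. Lower there were Aqp4, with ratios of 0.42 and 0.27, Cd36, with 0.53 and 0.48, and Car3, with 0.56 and 0.497. Pgam2 had 0.84 and 0.81, and Trdn 1.23 and 1.23. C3, the central complement component, had ratios of 0.18 and 0.17. Macrophage-class outlines were 10 of 187 (5.35%) and 22 of 132 (16.7%) of the other outlines within 50 µm of the stretch. Beside the remaining members of each strip they were 3.01% and 2.78%. The shares at the stretch rest on few outlines and differed between the strips. Of the macrophage markers, Mpeg1 had ratios of 4.30 and 5.46, Ms4a7 2.37 and 2.62, Clec4a3 2.21 and 2.96, Ms4a6c 0.79 and 1.61, and C5ar1 0.93 and 1.43. Folr2, another macrophage gene, had 0.39 and 0.49. The part of these neighbours in the profile was not tested. These genes were chosen after their values had been seen.

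Macrophage genes formed the next group. Ms4a7, a membrane protein of macrophages, was at 1400 and 1410 CPM in the SspA+HDM strips and 293 and 327 CPM in the mock strips, a ratio of 4.52 (3.66 to 5.65). Mpeg1, which encodes the pore-forming perforin-2, was at 1496 and 1581 CPM in SspA+HDM skin and 443 and 523 CPM in mock skin. Ctss, the lysosomal protease cathepsin S, was at 8554 and 7613 CPM in the SspA+HDM strips, above the 3336 and 3010 CPM of the mock strips. Of 5 measured macrophage markers 4 were at least 2-fold higher, 4 in interior members and 2 over the nucleus. The 6 on the panel summed to 6990 and 7247 CPM in the SspA+HDM strips and 2834 and 3162 CPM in the mock strips, and none was at 0 in either section. Csf3r, the receptor for granulocyte colony-stimulating factor, had a ratio of 4.11 (2.78 to 6.29). It was the 1 of 3 measured granulocyte markers with a ratio above 1, and their median log2 ratio was -0.17. For the leukocyte gene Lst1 the ratio was 3.27 (2.25 to 4.88).

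The outlines beside the muscle differed in the same respect. Macrophage-class outlines were 165 of 4943 non-muscle outlines within 50 µm of a muscle outline in SspA+HDM skin and 24 of 4066 in mock skin. This is 3.34% (2.85 to 3.88) and 0.590% (0.379 to 0.877), beside 1.61% and 0.982% among all non-muscle outlines. Per mm there were 8.86 and 12.6 along the SspA+HDM strips and 1.45 and 1.9955 along the mock strips. Muscle outlines within 30 µm of one were 9.50% in SspA+HDM skin and 2.31% in mock skin. Without them the ratio of Ms4a7 was 4.24 and that of Ctss 2.41. From the summed levels alone, more macrophages and more RNA from each cannot be told apart.

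Within 50 µm, adipocyte-class outlines were 40.1% of neighbours in SspA+HDM skin and 39.4% in mock skin, and fibroblast-class outlines 39.6% and 36.7%. Among all non-muscle outlines the adipocyte class was 8.14% in SspA+HDM and 12.6% in mock skin, and the fibroblast class 25.4% and 26.2%. Car3, an adipocyte marker here, is also held by muscle, so pieces of muscle below the rule may count as adipocyte-class. The shares beside muscle moved with the distance. Adipocyte-class outlines were 35.1% in SspA+HDM and 52.8% in mock skin within 25 µm, and 25.6% and 18.3% within 100 µm. Fibroblast-class outlines were 46.9% in SspA+HDM and 33.0% in mock skin within 25 µm, and 34.6% and 32.0% within 100 µm. The macrophage share was higher in SspA+HDM skin at all 3 distances, at 3.27% against 0.458% within 25 µm and 2.26% against 0.982% within 100 µm. Within 50 µm, smooth muscle and pericyte outlines were 4.01% in SspA+HDM skin and 5.66% in mock skin, beside 3.38% and 4.19% among all non-muscle outlines. Blood endothelial outlines were 1.32% and 2.93% in the SspA+HDM strips and 0.698% and 0.590% in the mock strips. Among all non-muscle outlines they were 1.75% and 1.90% in the SspA+HDM strips and 0.531% and 0.456% in the mock strips, so the sections differed away from muscle too.

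Other genes among the 24 belong to no list written for this comparison, apart from Bgn in the fibroblast list. Of the 6 fibroblast markers 1 was at least 2-fold higher and their median log2 ratio was -0.09. C3 was at 14065 and 12684 CPM in the SspA+HDM strips and 6528 and 5769 CPM in the mock strips, a ratio of 2.17 (2.06 to 2.28). It was 3.79 in interior members and 2.15 over the nucleus, whereas in the other outlines C3 was 2.18-fold lower in SspA+HDM skin. Serpina3n, an extracellular protease inhibitor, was at 2875 and 3199 CPM in the SspA+HDM strips and 893 and 1134 CPM in the mock strips. Its ratio was 3.01 (2.67 to 3.401), 6.94 in interior members and 1.497 over the nucleus, against 1.05 in other outlines. Bgn, the proteoglycan biglycan, was at 17996 and 18822 CPM in SspA+HDM skin, above the 7538 and 8288 CPM of mock skin, and 1.64-fold higher in other outlines too. Ccn3, a matricellular protein, had a ratio of 2.63 (2.19 to 3.16). Gamt, the last enzyme of creatine synthesis, had 2.02 (1.75 to 2.34) in muscle outlines and 0.64 in other outlines.

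Some epidermal genes were also higher in SspA+HDM muscle outlines, at levels far below those of the epidermis. Krt16, a keratin of stressed epidermis, was at 1000 and 1149 CPM in the SspA+HDM strips and 482 and 145 CPM in the mock strips. Its ratio was 3.48 (2.81 to 4.36) in muscle outlines and 17.5 in other outlines, and its level in muscle outlines was 0.03 of that in other outlines in SspA+HDM skin and 0.14 of it in mock skin. Calm4 and Asprv1, genes of the upper epidermis, had ratios of 2.97 and 2.67, and Epcam 2.64. Of 7 measured keratinocyte markers 2 were at least 2-fold higher, and 1 in interior members. All 7 had ratios above 1, as did 60.9% of all genes, and the 11 on the panel summed to 4815 and 5358 CPM in SspA+HDM skin and 3225 and 2897 CPM in mock skin. Whether these transcripts belong to muscle was not tested.

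Retnla was the 1 gene at least 2-fold lower. It encodes RELMα, a secreted factor of alternatively activated macrophages that is also made by fat and fibroblasts. It was at 3671 and 3404 CPM in the SspA+HDM strips and 9669 and 8962 CPM in the mock strips. The ratio was 0.38 (0.36 to 0.40), 0.41 in interior members and 0.43 over the nucleus. It was found in 19.6% of SspA+HDM and 39.3% of mock muscle outlines. The other outlines differed more, with Retnla 16.5-fold lower in SspA+HDM skin, so that muscle outlines stood 10.03-fold above them in SspA+HDM skin and 1.60-fold in mock skin. Inside the Tnnc1 stretch Retnla was 2.08-fold and 3.44-fold above the other members of the same strips.

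Further low ratios fell short of 2-fold. Retn, which encodes the fat-cell hormone resistin, had a ratio of 0.52 (0.48 to 0.57), Ndrg1 0.53 (0.48 to 0.58) and the fibroblast gene Pcolce2 0.54 (0.50 to 0.59). Timp3, an inhibitor of matrix proteases, had 0.62 (0.60 to 0.65), with 0.84 in interior members. Prx, a gene of Schwann cells, had 0.65, and the potassium channel gene Kcna1 0.55. Lyve1 and Mmrn1, genes of lymphatic vessels, had 0.61 and 0.62. Myh11, the myosin of smooth muscle, had 0.62, with 1.27 in interior members. The sum of the adipocyte markers was 229630 and 242590 CPM in the SspA+HDM strips and 257440 and 264010 CPM in the mock strips, most of it Car3.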

How the data were processed

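Per the file headers, the authors deposited for each sample decoded transcripts (gene, position, outline, nuclear overlap and a quality score) and the vertices of the outlines. The score, and positions taken as µm, were used as deposited. The decoding and segmentation software is not given in the sources used here. Gene transcripts with a score of at least 20 were counted per outline, control features left out. The members, gene lists and marker lists were chosen with earlier results of these data known.

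Levels are CPM over the 374 genes outside the rule, given for genes that reached 100 transcripts in the members of either section. Ratios divide SspA+HDM by mock. Ratios have exact conditional binomial intervals and shares exact Clopper-Pearson intervals at 95%. With 1 sample per treatment there is no test, and calls are by a 2-fold size. Ratios and intervals were tested on simulated data. Marker classes needed at least 5% of an outline's transcripts and 3 transcripts. Named genes are the rule genes, the 12 highest and lowest ratios, the 12 highest against other outlines, and the 2 highest and lowest of each list. Others, among them Ctss, C3, Bgn and Gamt, were chosen after their values were seen. Python 3 with numpy, scipy and pandas was used.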

Additional observations from a re-analysis of the deposited data

Results flagged for a closer look

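A signal lay outside the outlines on which the comparisons rest. Of the transcripts of Ttn, Pvalb, Actn3, Pygm and Des, 44494 in SspA+HDM skin and 48933 in mock skin lay outside every segmented outline, which is 6.64% and 11.6% of their transcripts and far above a count of 3. Of these, 83.0% in SspA+HDM skin and 89.4% in mock skin were within 50 µm of the centre of a muscle outline. For all other genes 2.02% and 4.28% lay outside outlines. Pln was listed for 44 SspA+HDM and 61 mock transcripts, too few to count.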

How the results depend on the processing

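The smaller share, the larger number per mm and the greater distance from the outer edge of SspA+HDM muscle outlines kept their direction under each of the 12 alternatives tried for them. The ratio of median transcripts per outline ran from 0.951 to 1.03, on both sides of 1. The share ratio was 0.61, and 0.53 with members chosen on Ttn alone, 0.66 without mock strip 1 and 0.56 without mock strip 2. The ratio per mm was 1.59, and 1.40 with Ttn alone and 1.503 without SspA+HDM strip 2. The count of genes at least 2-fold higher, 24 of 169, was 38 of 183 at a rule share of 20% and 6 of 120 over the nucleus. It was 44 of 219 with a minimum of 30 transcripts and 7 of 84 with outlines thinned to 40 transcripts. Here genes were counted anew in each setting, while the 11 over the nucleus given above were counted among the 24. The count of 1 lower gene was 5 with no quality minimum, 3 at a quality of 30, 4 at a rule share of 20%, 2 with Ttn alone, 4 without mock strip 1, 2 without mock strip 2, 5 without SspA+HDM strip 2, 2 over the nucleus, 2 in interior members, 5 with a minimum of 30 transcripts and 2 after thinning. For the named genes, 601 of 780 log2 ratios stayed within the counting interval and 178 were counted as moved beyond it. A further 1, that of Pln, was counted as reversed (0.14 in interior members, from 24 and 7 transcripts, against -1.30). Sign changes were not limited to Pln, since the ratio of Myh11 was below 1 over all members and above 1 in interior members. The cause of these changes was not tested. Leaving out outlines with keratinocyte markers, the Tnnc1 stretch or outlines near macrophages, chosen after seeing the data, gave 22, 22 and 20 higher genes and 1 lower gene. No paired analysis was possible because each treatment has 1 sample. Transcripts are few over nuclei, which limits values there.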
